A study of Homo sapiens with 6 samples.

Results

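The nuclear-encoded subunits of the respiratory chain were examined in MDA-MB-231 cells, a human line of the triple-negative subtype of breast cancer. The rule names genes by symbol and biotype and uses no measured value, though the gene family was picked with earlier results of these data known. It takes the protein-coding genes of the deposited count table named NDUFA, NDUFB, NDUFC, NDUFS or NDUFV plus a number (complex I), SDHA to SDHD (complex II), UQCR or CYC1 (complex III), COX4 to COX8 (complex IV) or ATP5 (complex V). The rule took 88 of 58735 genes, of which 37 belong to complex I, 4 to complex II, 10 to complex III, 17 to complex IV and 20 to complex V. A filter on low counts left 80 of them among the 14975 genes tested. The study compared 3 libraries labelled PM2.5, from cells exposed to airborne particulate matter of that size class, with 3 libraries labelled Control, to ask how exposure bears on the malignant behaviour of this breast cancer subtype. All 6 come from the same line, and the labels give 48 h for the RNA of all 6. The labels say nothing of particle dose or source, of what the Control cells received, or of batches. The design speaks of biological replicates without saying how separate the cultures were, so p-values measure the spread between these libraries.

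The respiratory chain sits in the inner mitochondrial membrane. Complex I takes electrons from NADH and complex II from succinate, both pass them to coenzyme Q, complex III hands them to cytochrome c, and complex IV gives them to oxygen. Complexes I, III and IV pump protons, and complex V, the ATP synthase, uses the returning protons to make ATP. Most subunits are encoded in the nucleus and imported, whereas a small set of core subunits of complexes I, III, IV and V is encoded by mitochondrial DNA. Complex II is encoded in the nucleus throughout.

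Total counts ran from 31846136 to 34691009 per library. The line's mesenchymal markers VIM, CD44, CAV1, AXL and FN1 were present in both groups, and 2 of these 5 were called higher in PM2.5. FN1 averaged 6163 ± 301 CPM in PM2.5 and 2679 ± 222 CPM in Control, and CAV1 164 ± 7.40 CPM in PM2.5 and 77.2 ± 4.41 CPM in Control (SD, n = 3 each). The oestrogen receptor gene ESR1 and the leukocyte genes PTPRC and CD3E had 0 counts in every library, and the epithelial genes CDH1 and EPCAM averaged 0.0194 and 0.107 CPM in PM2.5 and 0.00975 and 0.0629 CPM in Control. Of the 13 epithelial, leukocyte and endothelial markers, KRT8 (572 CPM in PM2.5 and 433 CPM in Control), PECAM1 (55.1 CPM in PM2.5 and 43.7 CPM in Control) and CD14 (3.08 CPM in PM2.5 and 1.77 CPM in Control) were called higher and ERBB2 (43.1 CPM in PM2.5 and 64.9 CPM in Control) lower. Each of the others had at most 0.643 CPM in any library, and the part of these genes in the results was not tested. HMOX1, a gene that oxidative particles are known to induce, had 52.2, 44.8 and 56.7 CPM in PM2.5 and 807, 756 and 873 CPM in Control. CYP1A1, a gene of the aryl hydrocarbon response, averaged 2.73 ± 0.649 CPM in PM2.5 and 6.28 ± 1.73 CPM in Control (SD, n = 3 each). Both were called lower in PM2.5 (adjusted p = 3.36e-12 and 0.00116 by edgeR). Directions are those of the libraries as labelled. Whether labels were exchanged, which would turn every direction given here, or Control cells were treated was not tested. Levels are CPM, counts scaled to library size with TMM factors. A gene is called where edgeR's quasi-likelihood p, adjusted over all 14975 genes by the Benjamini-Hochberg method, is under 0.05.

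Each of the 5 complexes had genes that fell in PM2.5, by small amounts, and none that rose. Of the 80 tested subunit genes 37 fell (46.25%) and 0 rose, where 15.8% of all tested genes fell, 16.1% rose and 31.9% did either (edgeR's quasi-likelihood test). Of the 12653 tested protein-coding genes 17.4% fell and 17.1% rose. The subunit genes had a median level of 60.7 CPM and a median length of 2545 bases. For all tested genes these medians were 14.5 CPM and 4654 bases, and how level and length bear on the shares was not tested. At an unadjusted p under 0.05 only NDUFV2 was higher, which makes 1 gene, and 47 subunit genes were lower. At that threshold 3104 of all tested genes were higher and 3179 lower. DESeq2 and limma-voom called 0 subunit genes higher, where they called 17.3% and 16.0% of all tested genes higher. The median log2 fold change of the subunit genes was -0.29, beside -0.01 for all tested genes. Individually 74 lay below 0 and 6 above, and 42 had all PM2.5 libraries below all Control libraries, where 22.9% of all genes did. In the other direction NDUFV2 alone had no overlap between the groups, where 21.4% of all genes did, and in 37 the groups overlapped. The largest change was that of NDUFA8, a 1.61-fold lower level, and 4 subunit genes changed by at least 1.5-fold. The subunit genes called lower had a median log2 fold change of -0.39, beside -0.53 for all genes called lower. In bulk RNA from a culture, fewer cells with a high level and less RNA in each cell cannot be told apart.

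**Figure D1:**
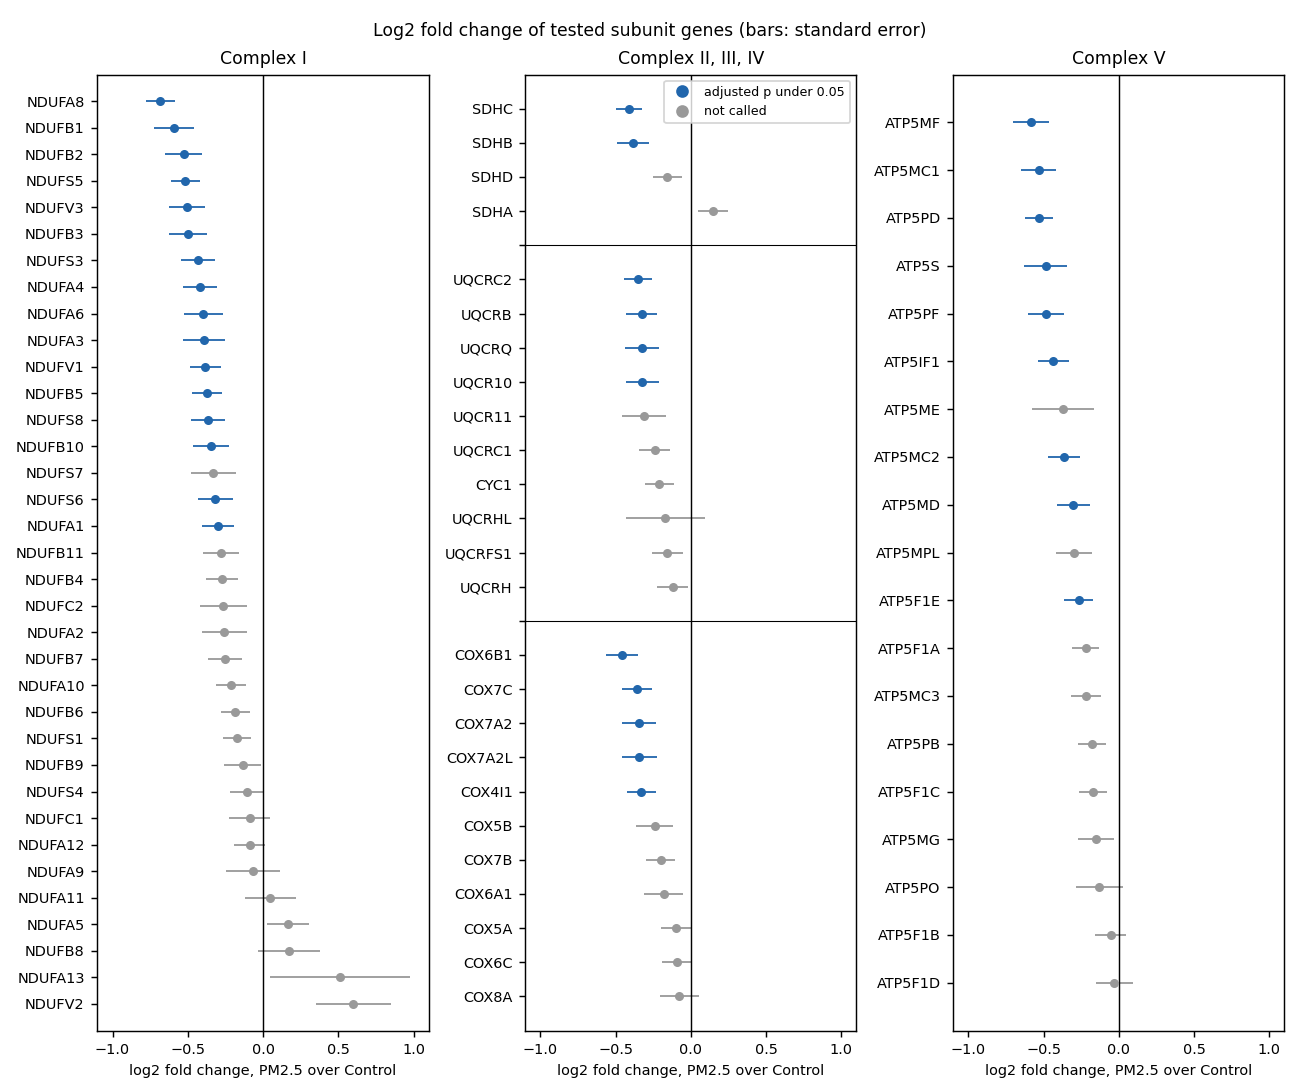
Log2 fold change, PM2.5 over Control, of 79 of the 80 tested subunit genes by complex, with points as edgeR estimates, bars as standard errors and blue for genes with an adjusted p under 0.05. The 36 called genes drawn lie left of 0, and the 6 genes right of 0 (NDUFV2, NDUFA13, NDUFB8, NDUFA5, NDUFA11 and SDHA) are grey.

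The number called depended on which libraries entered. With PM2.5 replicate 1, 2 or 3 left out it was 20, 22 and 29, and with Control replicate 1, 2 or 3 left out 18, 19 and 55. In each of these fits 0 were called higher. Without Control replicate 3, 18 genes that were not called with all 6 libraries were called lower. Of all tested genes 9.39% to 17.4% were called lower in them and 11.6% to 16.9% higher. With 1 library left out, lower calls ran from 7 to 23 in complex I, 1 to 2 in complex II, 0 to 8 in complex III, 1 to 8 in complex IV and 5 to 14 in complex V. In complex III there were 0 without PM2.5 replicate 1 or Control replicate 2. Of the 37 called genes 14 kept the call whichever single library was left out, among them NDUFA8, NDUFS5, NDUFB1, NDUFB2, NDUFV3, NDUFB3, SDHC, COX6B1, ATP5PD, ATP5MF, ATP5MC1, ATP5IF1 and ATP5PF. The other 23 lost it without at least 1 library, at adjusted p-values between 0.0508 and 0.218, and stayed below 0. How many of all genes called lower kept the call in this way was not computed. When libraries were scaled to counts per gene length, as TPM does, the median log2 fold change of all genes moved by 0.17 to 0.16, and calls over all genes became 3406 higher and 1013 lower, against 2410 higher and 2365 lower with TMM. Under that scaling, added after seeing the data, 9 subunit genes were called lower and 2 higher. Their median log2 fold change minus that of all genes was -0.27 under that scaling and -0.28 with TMM. A change of library scaling moves all genes by about the same amount, so it could hardly change this difference. With trends on gene length and GC content removed, which can change it, the difference was -0.20.

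Summed over all 88 genes, the level was 5771, 5381 and 5804 CPM in the PM2.5 libraries and 7209, 7042.5 and 5946 CPM in the Control libraries. The PM2.5 sums lay below all 3 Control sums, with Control replicate 3 much closer to PM2.5 than to the other Control libraries. The mean was 5652 ± 235 CPM in PM2.5 and 6733 ± 686 CPM in Control (SD, n = 3 each), 16.0% lower in PM2.5. Complex I had the widest gap, with 1414 ± 63.0 CPM in PM2.5 and 1779.8 ± 172 CPM in Control, 20.6% lower. The summed level was 18.2% lower for complex IV, 15.5% for complex III and 13.9% for complex V. In complexes I, III and IV the sums of the groups did not overlap, whereas in complex V PM2.5 replicate 3 (1851 CPM) lay above Control replicate 3 (1849 CPM). Complex II summed to 473, 455 and 488 CPM in PM2.5 and to 508, 523 and 444 CPM in Control. There Control replicate 3 lay below every PM2.5 library, and the means differed by 3.91%, less than the spread in Control.

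**Figure D2:**
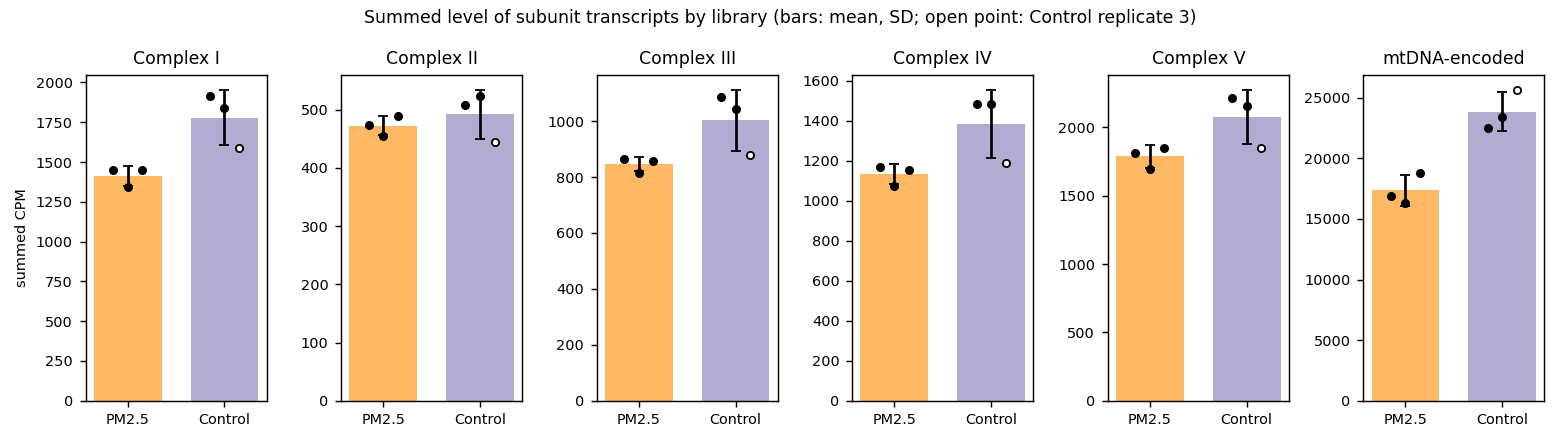
Summed CPM of the nuclear-encoded subunits of each complex, and of the subunits encoded by mitochondrial DNA, in each library (points), with bars as means and lines as SD over 3 libraries, PM2.5 left of Control. Control replicate 3 (open point) is the lowest Control library for each nuclear-encoded complex and the highest, at 25634 CPM, for the mitochondrially encoded set.

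Control replicate 3 stood apart from the other Control libraries for these genes. It was the lowest Control library for 71 of the 80 tested genes, and its median deviation from the Control mean was -0.17 on the log2 scale, against 0.11 and 0.05 in Control replicates 1 and 2. The PM2.5 libraries had median deviations of -0.24, -0.36 and -0.23. Over all tested genes these medians lay between -0.05 and 0.00 in every library. PM2.5 replicate 2 was the lowest PM2.5 library for 56 genes. In 67 genes all PM2.5 libraries lay below both Control replicates 1 and 2. Shares over all tested genes were not computed for these counts of 71, 56 and 67. Control replicate 3 also had the lowest score on the second principal component of all genes, -36.9, where the other libraries lay between -10.3 and 16.5. What sets this library apart was not tested.

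**Figure D3:**
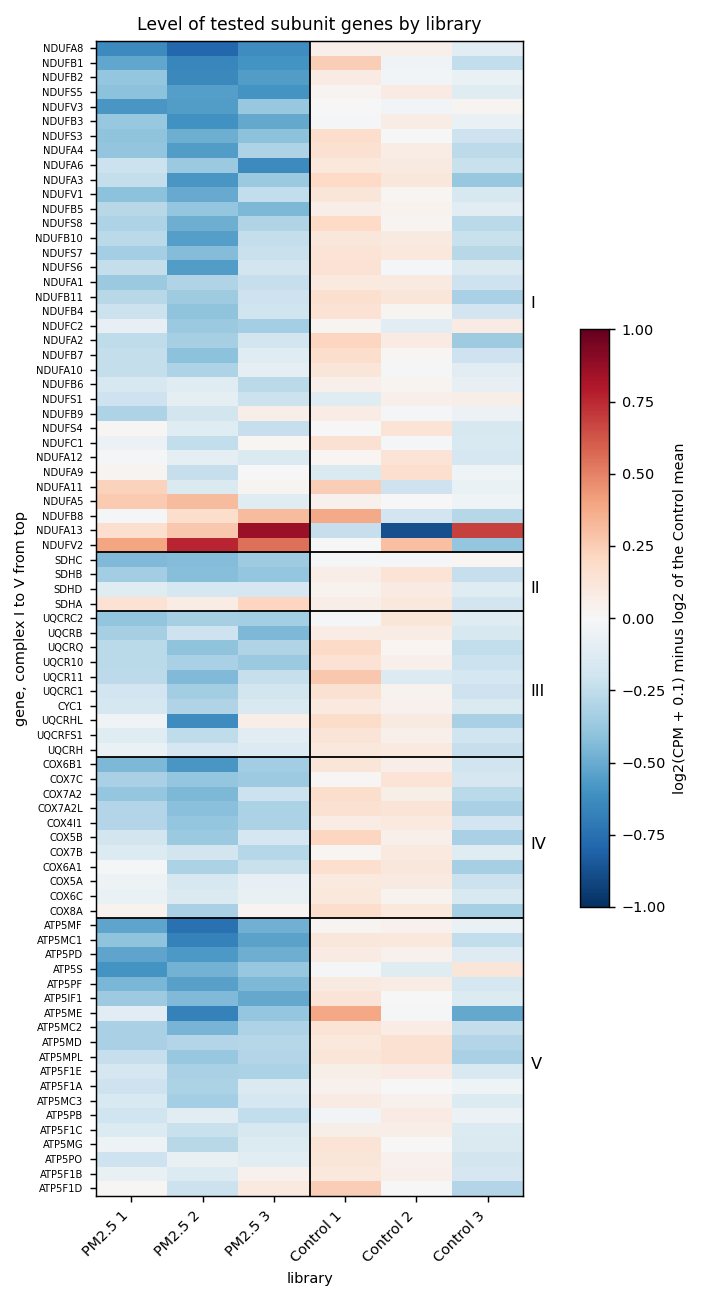
Level of 79 of the 80 tested subunit genes (rows, complex I to V from the top, ordered by fold change within a complex) in each library (columns, PM2.5 left of Control), as log2(CPM + 0.1) minus the log2 of the Control mean, blue for lower and red for higher. The PM2.5 columns are blue in most rows, Control replicate 3 is pale blue in most rows of all 5 complexes, and the rows of NDUFV2 and SDHA are red in all 3 PM2.5 columns.

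Promoters of respiratory chain genes are known for sites of NRF1 (nuclear respiratory factor 1), of the ETS factor GABP (also called nuclear respiratory factor 2) and of YY1. RefSeq promoter windows on GRCh38.p14, from 250 bases before to 50 bases after the start, were matched to 69 of the 88 genes. The letters searched on both strands were GCGCA, any 1 base and GCGC for NRF1, CCGGAAG for ETS factors and AANATGGCG for YY1, and none of these words contains another. NRF1 letters stood in 24.6% of the subunit promoters and in 5.78% of all 35116 promoters, ETS letters in 20 of 69 and 10.3%, and YY1 letters in 23.2% and 3.19%. At least 1 of the words was found in 59.4% of the subunit promoters and in 17.1% of all. The 35116 windows were not limited to protein-coding genes or to 1 window per gene, whereas each subunit gene had 1. The shares are therefore not strictly comparable. Among the promoters of the genes called lower, NRF1 letters were found in 3 of 29, and among those tested and not called in 13 of 35. ETS letters were found in 9 of 29 promoters of genes called lower and in 11 of 35 of those not called, and YY1 letters in 7 of 29 and 8 of 35. This split by call was chosen after the calls were known and was not tested. A match describes letters and shows no binding.

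Shown here are the 120 bases before the RefSeq start for 6 genes, which give an example of each word and at least 1 gene from each complex. They are on GRCh38.p14 and read along the gene's strand, with the searched letters in capitals. This start can lie inside the gene model that was counted, as it does for NDUFA3, NDUFS3 and COX6B1. SDHA, the complex II gene whose level was higher in PM2.5 without being called, has 4 NRF1 words in its whole window and 3 in the stretch shown (chr5:218200-218319, plus strand). NDUFA3 (chr19:54102735-54102854, plus strand) is 1 of the 3 called genes with NRF1 letters. NDUFS3 (chr11:47578954-47579073, plus strand) carries 2 ETS words, and UQCRQ (chr5:132866522-132866641, plus strand) and COX6B1 (chr19:35648203-35648322, plus strand) carry 1 each. ATP5PF (chr21:25735055-25735174, minus strand) carries a YY1 word followed by an ETS word.
SDHA: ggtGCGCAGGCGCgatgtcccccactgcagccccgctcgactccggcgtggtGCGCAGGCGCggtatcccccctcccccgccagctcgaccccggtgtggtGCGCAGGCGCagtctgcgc
NDUFA3: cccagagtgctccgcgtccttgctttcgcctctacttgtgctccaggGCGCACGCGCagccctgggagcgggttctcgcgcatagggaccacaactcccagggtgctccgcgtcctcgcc
NDUFS3: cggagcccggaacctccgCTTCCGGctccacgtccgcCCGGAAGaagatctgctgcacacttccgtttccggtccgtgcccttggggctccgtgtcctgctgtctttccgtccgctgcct
UQCRQ: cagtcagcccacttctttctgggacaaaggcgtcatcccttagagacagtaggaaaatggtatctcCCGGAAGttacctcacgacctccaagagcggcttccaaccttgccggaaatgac
COX6B1: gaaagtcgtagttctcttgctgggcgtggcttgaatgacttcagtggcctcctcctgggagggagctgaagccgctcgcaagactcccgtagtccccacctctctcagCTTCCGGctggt
ATP5PF: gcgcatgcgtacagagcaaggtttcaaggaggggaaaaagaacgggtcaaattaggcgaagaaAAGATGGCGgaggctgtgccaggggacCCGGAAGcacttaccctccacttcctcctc

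Within complex I, 17 of 36 tested genes fell and none rose, at a median log2 fold change of -0.29. The core subunits, which bind the flavin and the iron-sulphur clusters and are shared with the bacterial enzyme, include called and uncalled genes. The NADH-binding flavoprotein NDUFV1 had 97.1, 90.8 and 108 CPM in PM2.5 and 140.4, 131 and 115 CPM in Control, without overlap (log2 fold change -0.38 ± 0.10, SE, adjusted p = 0.00943 by edgeR). Leaving out PM2.5 replicate 1 or Control replicate 1 took NDUFV1 to adjusted p-values of 0.0687 and 0.0612. NDUFS3 and NDUFS8, core subunits of the matrix arm, fell by 0.43 and 0.36 on the log2 scale, NDUFS3 losing the call without Control replicate 1 (adjusted p = 0.0607 by edgeR) and NDUFS8 without any 1 of 4 libraries (adjusted p up to 0.146, without Control replicate 1). The largest subunit of this arm, NDUFS1, averaged 62.9 ± 2.91 CPM in PM2.5 and 70.9 ± 4.92 CPM in Control and was not called (adjusted p = 0.176 by edgeR). NDUFS7 averaged 10.5 ± 0.774 CPM in PM2.5 and 13.2 ± 2.03 CPM in Control and was not called either (adjusted p = 0.105 by edgeR, and 0.0201 without Control replicate 3).

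Among the accessory subunits of complex I, which surround the core and are needed for its assembly and stability, 13 of 29 tested genes fell. NDUFA8, a subunit of the intermembrane space side held by disulphide bonds (chr9:122144058-122159819, GRCh38, minus strand), had the largest fall and the smallest p of all subunit genes. It had 57.9, 52.3 and 58.6 CPM in PM2.5 and 93.6, 93.4 and 83.9 CPM in Control. Every PM2.5 library was well below every Control library, at a log2 fold change of -0.68 ± 0.10 (adjusted p = 5.44e-05 by edgeR). NDUFS5, also on the intermembrane space side, had 93.0, 84.3 and 81.4 CPM in PM2.5 and 126, 131 and 114 CPM in Control, a log2 fold change of -0.52 ± 0.10 (adjusted p = 0.000696 by edgeR). It was the complex I gene with the highest level per length, at 157 ± 11.0 CPM per kb in PM2.5 and 225 ± 16.2 CPM per kb in Control. NDUFB1 and NDUFB2, small subunits of the membrane arm, averaged 16.5 ± 0.776 and 14.9 ± 1.39 CPM in PM2.5 and 24.9 ± 4.33 and 21.4 ± 1.16 CPM in Control, with adjusted p-values of 0.00325 and 0.00408 by edgeR. For NDUFB1 the spread in Control, where replicate 3 was lowest at 21.0 CPM, was wider than in PM2.5.

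By subunit series, 5 of 12 tested NDUFA genes, 5 of 11 NDUFB genes, 0 of 2 NDUFC genes, 5 of 8 NDUFS genes and 2 of 3 NDUFV genes fell. NDUFV3, beside the flavoprotein, fell by 0.51 on the log2 scale and NDUFB3, in the membrane arm, by 0.50. NDUFA4, which was assigned to complex I by name and is now regarded as a subunit of complex IV, had 73.8, 66.2 and 78.5 CPM in PM2.5 and 108, 103 and 81.2 CPM in Control. Its groups did not overlap, though Control replicate 3 lay just above PM2.5 (log2 fold change -0.42 ± 0.11, adjusted p = 0.0102 by edgeR), and the call was lost without PM2.5 replicate 2 (0.0508) or Control replicate 1 (0.0604). The other called genes were NDUFB5, NDUFA6, NDUFB10, NDUFA1, NDUFA3 and NDUFS6, with log2 fold changes between -0.40 and -0.30, and each lost the call without at least 1 library, at adjusted p-values up to 0.202. Among the accessory genes below 0 that were not called, NDUFB4 (-0.27), NDUFB11 (-0.28) and NDUFB7 (-0.25) of the membrane arm came nearest, with adjusted p-values of 0.0584, 0.0807 and 0.0997 by edgeR. Without Control replicate 3 they were called lower (adjusted p = 0.00872, 0.00173 and 0.0195 by edgeR). In NDUFA6 and NDUFA3 the groups overlapped through Control replicate 3. NDUFAB1, the acyl carrier protein that is also a complex I subunit and whose symbol falls outside the rule, averaged 31.5 ± 0.479 CPM in PM2.5 and 39.8 ± 5.36 CPM in Control (adjusted p = 0.031 by edgeR, and up to 0.138 without 1 library, lost without any library but Control replicate 3).

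The complex I genes above 0 were NDUFV2, NDUFA13, NDUFB8, NDUFA5 and NDUFA11, none of them called. NDUFV2, a core subunit with an iron-sulphur cluster, had 2.73, 3.56 and 3.06 CPM in PM2.5 and 2.06, 2.56 and 1.55 CPM in Control. The groups did not overlap, and the log2 fold change was 0.60 ± 0.25 (adjusted p = 0.0797 by edgeR). Per length it had 1.15 ± 0.153 CPM per kb in PM2.5 and 0.758 ± 0.186 CPM per kb in Control, against 19.5 ± 1.75 CPM per kb in PM2.5 and 25.5 ± 2.49 CPM per kb in Control for NDUFV1. Pseudogenes named after it held counts equal to 62.5% of its own, so reads may be split between the copies. NDUFA13 had 0.806, 0.874 and 1.37 CPM in PM2.5 and 0.588, 0.339 and 1.20 CPM in Control, with the groups overlapping. NDUFB8 and NDUFA11 averaged 5.39 ± 0.627 and 8.57 ± 1.13 CPM in PM2.5 and 4.79 ± 1.28 and 8.29 ± 1.38 CPM in Control, and the sign of NDUFA11 turned without PM2.5 replicate 1 or Control replicate 2. NDUFA5 averaged 16.1 ± 2.56 CPM in PM2.5 and 14.4 ± 0.438 CPM in Control (adjusted p = 0.395 by edgeR), and its sign turned to -0.23 with trends on gene length and GC content removed.

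Complex II, which oxidises succinate and joins the chain to the TCA cycle, split by subunit. SDHC, which anchors the enzyme in the membrane (chr1:161314257-161375340, plus strand), had 65.1, 65.5 and 69.3 CPM in PM2.5 and 88.1, 87.8 and 90.0 CPM in Control. The groups were far apart against their spread, and Control replicate 3 was the highest library here (log2 fold change -0.41 ± 0.09, adjusted p = 0.00224 by edgeR). SDHB, the iron-sulphur subunit, had 58.9, 55.9 and 57.4 CPM in PM2.5 and 78.6, 82.6 and 63.9 CPM in Control. Again no PM2.5 library reached a Control library (log2 fold change -0.39 ± 0.11, adjusted p = 0.0106 by edgeR), with the call lost without Control replicate 2 (0.0708). SDHD, the second membrane anchor, had 62.8, 60.3 and 60.9 CPM in PM2.5 and 69.9, 72.4 and 62.8 CPM in Control, and was not called (log2 fold change -0.16 ± 0.09, adjusted p = 0.224 by edgeR). Under the TPM scaling its log2 fold change was 0.0146 (adjusted p = 0.907 by edgeR).

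SDHA, the flavoprotein that holds the succinate site, was the one subunit gene outside complex I above 0. It had 287, 273 and 301 CPM in PM2.5 and 272, 279.7 and 227 CPM in Control, so the groups overlapped, and its log2 fold change of 0.15 ± 0.10 was not called (adjusted p = 0.293 by edgeR). Under the TPM scaling it was 0.32 with an adjusted p of 0.00577 by edgeR, in a fit where the median of all genes was 0.16. Pseudogenes named after SDHA held counts equal to 4.63% of its own. It had the highest level per length in complex II, at 34.2 ± 1.63 CPM per kb in PM2.5 and 31.0 ± 3.38 CPM per kb in Control, beside 4.71 ± 0.164 CPM per kb in PM2.5 and 6.26 ± 0.0845 CPM per kb in Control for SDHC. SDHA made up most of the complex II sum in both groups.

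Complex III passes electrons from coenzyme Q to cytochrome c. Of its 10 tested genes 4 fell, none rose and all 10 lay below 0. UQCRC2, a core protein of the matrix side, had 86.0, 89.8 and 89.3 CPM in PM2.5 and 112, 123 and 104 CPM in Control. The PM2.5 libraries lay close together below all Control libraries, at a log2 fold change of -0.35 ± 0.09 (adjusted p = 0.00926 by edgeR, 0.0812 without PM2.5 replicate 1 and 0.0694 without Control replicate 2). UQCRB, UQCRQ and UQCR10, small accessory subunits, fell by 0.33, 0.33 and 0.32 on the log2 scale, without overlap between the groups. UQCRQ and UQCR10 kept the call only where Control replicate 3 was left out and UQCRB only where Control replicate 3 or PM2.5 replicate 2 was left out, the other adjusted p-values reaching 0.211. The nuclear-encoded subunits with redox centres, CYC1 and UQCRFS1, were not called with all 6 libraries but were called lower without Control replicate 3. In that fit 8 complex III genes were called lower. Cytochrome c1, CYC1, had 139, 128 and 141 CPM in PM2.5 and 168, 162 and 142 CPM in Control, with all PM2.5 libraries below Control replicate 3 by a narrow margin (log2 fold change -0.21 ± 0.10, adjusted p = 0.106 by edgeR, and 0.0151 without Control replicate 3). UQCRC1, the other core protein of the matrix side, had 227, 204 and 228 CPM in PM2.5 and 288, 266 and 224 CPM in Control, overlapping through Control replicate 3 (adjusted p = 0.0902 by edgeR, and 0.00571 without Control replicate 3). The Rieske protein UQCRFS1 averaged 89.4 ± 4.94 CPM in PM2.5 and 99.7 ± 11.5 CPM in Control (adjusted p = 0.259 by edgeR, and 0.0335 without Control replicate 3). UQCRH had the highest level per length, 83.2 ± 3.12 CPM per kb in PM2.5 and 90.5 ± 11.6 CPM per kb in Control, and its intronless near copy UQCRHL averaged 2.36 ± 0.590 CPM in PM2.5 and 2.66 ± 0.490 CPM in Control, so reads of the pair may be split between them.

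Complex IV, cytochrome c oxidase, has several subunits in ubiquitous and tissue-restricted versions. Of 11 tested genes 5 fell, and all 11 lay below 0. COX6B1, on the intermembrane space side where cytochrome c docks (chr19:35648223-35658861, plus strand), had 91.3, 83.2 and 97.7 CPM in PM2.5 and 135, 129.9 and 108 CPM in Control. There was no overlap, and the log2 fold change was -0.46 ± 0.10 (adjusted p = 0.00347 by edgeR). COX7C had 251, 239 and 244 CPM in PM2.5 and 315, 345 and 279 CPM in Control (log2 fold change -0.36 ± 0.10, adjusted p = 0.011 by edgeR, 0.0614 without PM2.5 replicate 1 and 0.0818 without Control replicate 2). COX4I1, the ubiquitous version of the regulatory subunit that binds ATP, had 208, 195 and 205 CPM in PM2.5 and 268, 272 and 224 CPM in Control (log2 fold change -0.33 ± 0.10, adjusted p = 0.0179 by edgeR). In both genes Control replicate 3 was the lowest Control library and still above PM2.5, and COX4I1 lost the call without PM2.5 replicate 1, PM2.5 replicate 2, Control replicate 1 or Control replicate 2, at adjusted p-values up to 0.0958.

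COX7A2 fell by 0.35 and COX7A2L, a factor that joins complexes III and IV into supercomplexes, by 0.34 on the log2 scale (adjusted p = 0.0286 and 0.0327 by edgeR), and in both the groups overlapped through Control replicate 3. COX7A2 kept the call only where PM2.5 replicate 3 or Control replicate 3 was left out and COX7A2L only where Control replicate 3 was left out, the other adjusted p-values reaching 0.157. COX5A, COX5B, COX6A1, COX6C, COX7B and COX8A were not called, at log2 fold changes between -0.24 and -0.08. Without Control replicate 3, COX5B, COX6A1 and COX7B were called lower (adjusted p = 0.00716, 0.0312 and 0.0336 by edgeR), and COX5A, COX6C and COX8A were not. COX8A had the highest level per length of complex IV, at 139.8 ± 19.1 CPM per kb in PM2.5 and 147 ± 26.5 CPM per kb in Control. Of the tissue-restricted versions, COX4I2 (lung), COX6A2 (heart and muscle), COX7B2 and COX8C (testis) had 0 counts in all 6 libraries, which allows up to 0.0864 to 0.0979 CPM in a library (3 counts, counting error only). COX7A1, the heart and muscle version of COX7A2, had 7 counts in all. COX6B2, the testis version of COX6B1, had 0.288, 0.151 and 0.495 CPM in PM2.5 and 0.131, 0.0925 and 0.0585 CPM in Control, too few counts to be tested. For each of the 6 pairs only the ubiquitous version passed the filter.

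In complex V 9 of 19 tested genes fell, none rose and all 19 lay below 0, at a median of -0.30. By part, 1 of 5 subunits of the catalytic F1 head was called. In the peripheral stalk, which holds the head in place, 2 of 4 were. In the c-ring, which turns with the protons, 2 of 3 genes were called, and so was the inhibitor. These parts are small, and 15.8% of all tested genes were called lower. Without Control replicate 3, ATP5F1A and ATP5F1C of the head and ATP5MC3 of the c-ring were called lower too (adjusted p = 0.0286, 0.0223 and 0.0175 by edgeR). ATP5PD of the peripheral stalk (chr17:75038863-75046985, minus strand) had 70.9, 68.8 and 73.0 CPM in PM2.5 and 108, 105 and 93.4 CPM in Control. The groups were well separated (log2 fold change -0.53 ± 0.09, adjusted p = 0.000476 by edgeR). ATP5PF, also of the stalk, averaged 18.2 ± 0.667 CPM in PM2.5 and 25.5 ± 2.59 CPM in Control (adjusted p = 0.00552 by edgeR), whereas the stalk genes ATP5PB and ATP5PO had log2 fold changes of -0.18 and -0.13 and were not called.

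The c-ring protein is encoded by 3 genes that give the same mature protein. ATP5MC1 had 50.3, 41.6 and 45.7 CPM in PM2.5 and 71.8, 71.4 and 56.0 CPM in Control (log2 fold change -0.53 ± 0.11, adjusted p = 0.00215 by edgeR). ATP5MC2 had 151, 137 and 153 CPM in PM2.5 and 207, 199 and 160.5 CPM in Control (log2 fold change -0.36 ± 0.11, adjusted p = 0.0154 by edgeR, up to 0.0909 without PM2.5 replicate 1, PM2.5 replicate 2, Control replicate 1 or Control replicate 2). ATP5MC3 averaged 117 ± 8.22 CPM in PM2.5 and 136 ± 11.0 CPM in Control and was not called (adjusted p = 0.0969 by edgeR). In all 3 genes every PM2.5 library lay below every Control library.

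ATP5IF1, the inhibitor that stops the enzyme from running backwards, had 41.9, 39.8 and 37.9 CPM in PM2.5 and 59.2, 53.8 and 49.1 CPM in Control. It fell, without overlap (log2 fold change -0.44 ± 0.10, adjusted p = 0.00409 by edgeR). ATP5MF, a small membrane subunit, averaged 16.1 ± 1.56 CPM in PM2.5 and 24.1 ± 0.984 CPM in Control (adjusted p = 0.00155 by edgeR). ATP5MD, now named ATP5MK, fell by 0.30 and overlapped through Control replicate 3. The small membrane subunits ATP5ME, ATP5MPL (now named ATP5MJ) and ATP5MG had log2 fold changes of -0.37, -0.30 and -0.15 and were not called. ATP5MGL, a relative of ATP5MG, had 0 counts in every library. ATP5S, now named DMAC2L and no structural subunit, fell by 0.49 and lost the call without PM2.5 replicate 1 (adjusted p = 0.103 by edgeR).

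In the F1 head only ATP5F1E was called. ATP5F1B, the catalytic beta subunit, had the highest level per length of all subunit genes, 234 ± 15.4 CPM per kb in PM2.5 and 243 ± 23.3 CPM per kb in Control. It had 534, 512 and 582 CPM in PM2.5 and 606, 583 and 502 CPM in Control, overlapping, with Control replicate 3 the lowest library of all (log2 fold change -0.05 ± 0.10, adjusted p = 0.718 by edgeR). Its sign turned to 0.01 with length and GC trends removed and to 0.12 under the TPM scaling. The alpha subunit ATP5F1A had 170.2, 158 and 178 CPM in PM2.5 and 203, 196 and 191 CPM in Control, without overlap and not called (log2 fold change -0.22 ± 0.09, adjusted p = 0.0734 by edgeR, 0.0286 without Control replicate 3). The epsilon subunit ATP5F1E had 123, 110.4 and 111 CPM in PM2.5 and 144, 146 and 124 CPM in Control (log2 fold change -0.27 ± 0.10, adjusted p = 0.0454 by edgeR), and kept the call only without Control replicate 3, the other adjusted p-values reaching 0.179. The gamma subunit ATP5F1C and the delta subunit ATP5F1D had log2 fold changes of -0.17 and -0.03, and the second turned positive in 4 alternatives. ATP5MD likewise kept its call only without Control replicate 3 (adjusted p up to 0.218 otherwise).

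Overlap with other gene models was a property outside the rule. In 15 of the 88 genes part of the coding sequence lies under exons of another annotated gene on the same strand in GENCODE 29, most often a readthrough or other joint gene model. The counting rule for reads in shared exons is not stated in the labels. Of the 13 tested among them (NDUFV2, NDUFC2, NDUFA13, NDUFB8, NDUFA9, NDUFA11, SDHD, UQCR11, COX6A1, COX8A, ATP5MF, ATP5MG and ATP5PO), with 36.9% to 100% of coding bases shared, only ATP5MF was called lower, and the median log2 fold change was -0.13. Of the 67 tested genes with no coding base shared on the same strand 36 were called lower, at a median of -0.32. Over all tested genes 15.8% were called lower. NDUFB2, 1 of the 36, has 45.2% of its coding bases under exons of the opposite strand, which this split leaves out. Per length, the genes with shared coding bases had a median of 2.73 CPM per kb in PM2.5 and 3.28 CPM per kb in Control, and those without 22.4 CPM per kb in PM2.5 and 27.4 CPM per kb in Control. Their median levels were 8.43 and 66.9 CPM. The median coefficient of variation between replicates was 10.9% in PM2.5 and 16.6% in Control with sharing, and 6.13% and 10.6% without. Whether level or spread bears on the number called was not tested. The overlapping models themselves held 0 to 4 counts over the 6 libraries, apart from YJEFN3 over NDUFA13 with 150 and PTCD1 over ATP5MF with 205. NDUFA7, with 78.3% of coding bases shared, averaged 0.245 CPM in PM2.5 and 0.288 CPM in Control and did not pass the filter. The split was made after the values were seen and was not tested. Levels and fold changes of the genes with same-strand overlap are therefore less certain. The strand option of the counting is not known, so this may also hold for genes such as NDUFB2.

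**Figure D4:**
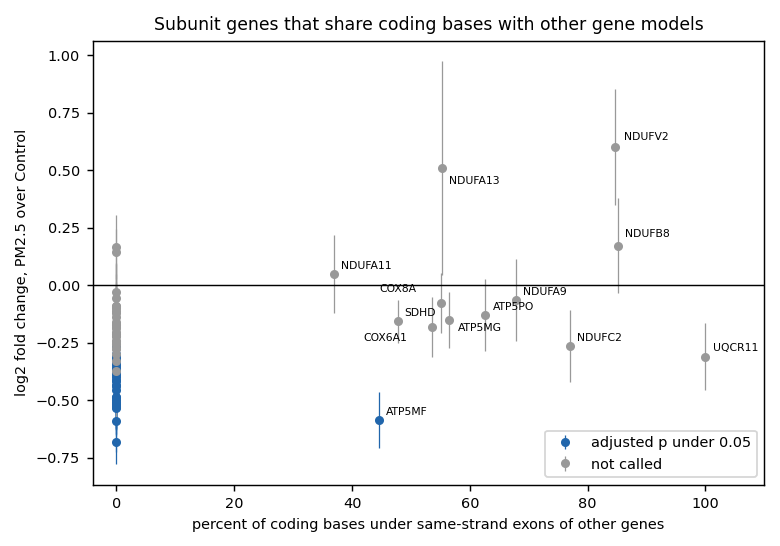
Log2 fold change, PM2.5 over Control, with standard error, against the percent of coding bases under same-strand exons of other genes, for the 80 tested subunit genes, blue for an adjusted p under 0.05. At 0% the points spread from -0.68 to 0.17 with 36 of 67 blue, and of the 13 named genes to the right only ATP5MF is blue.

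Over all 80 genes together, fold change showed little relation to level, GC content or gene length. Spearman's rho across genes, which share libraries and are not independent, was -0.07 with mean level, -0.04 with GC content and 0.03 with gene length. With mean level it was -0.63 in the 13 genes with same-strand overlap and 0.19 in the 67 without, and this difference was not tested. The median coefficient of variation between replicates was 6.80% in PM2.5 and 10.9% in Control.

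The subunits encoded by mitochondrial DNA were lower too, by more in the sum. They totalled 16899.9, 16353 and 18816 CPM in PM2.5 and 22473, 23433 and 25634 CPM in Control, without overlap and 27.2% lower in PM2.5. Here Control replicate 3 was the highest library, the reverse of its place among the nuclear-encoded subunits. Of the 13 genes 7 fell (4 without PM2.5 replicate 1) and none rose, at a median log2 fold change of -0.38. MT-CO1, the catalytic subunit of complex IV, had 6024, 6007 and 6809.9 CPM in PM2.5 and 9230.2, 9818 and 10669.7 CPM in Control (log2 fold change -0.66 ± 0.11, adjusted p = 0.000414 by edgeR). It makes up more of the sum than any other of these genes. MT-ND4L, MT-ND6, MT-ND3, MT-ND4 and MT-ND5 of complex I and MT-CO2 of complex IV fell by 0.47, 0.49, 0.41, 0.40, 0.40 and 0.38 on the log2 scale. MT-ND4 lost the call without PM2.5 replicate 1, and MT-CO2 and MT-ND5 without PM2.5 replicate 1 or 2, at adjusted p-values up to 0.121. MT-CYB, MT-CO3, MT-ATP6, MT-ATP8 and MT-ND2 were not called, at log2 fold changes of -0.32, -0.28, -0.26, -0.27 and -0.10. MT-ND1 averaged 583 ± 86.8 CPM in PM2.5 and 539 ± 79.4 CPM in Control (log2 fold change 0.11 ± 0.12, adjusted p = 0.519 by edgeR). MT-ND4L overlaps MT-ND4, MT-ATP8 overlaps MT-ATP6 and MT-ND6 lies opposite the transcript of its neighbours, so reads there may not be assigned to 1 gene.

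Among the factors that build the complexes, the called genes were lower in PM2.5 with COA1 as the exception. Of 15 tested assembly factors of complex I 6 fell and 1 rose. NDUFAF1, of the complex that builds the membrane arm, had 5.41, 5.49 and 4.34 CPM in PM2.5 and 9.73, 9.71 and 12.2 CPM in Control, at a log2 fold change of -1.06 ± 0.17 (adjusted p = 0.000201 by edgeR), larger than that of any subunit gene. NDUFAF4 and TIMMDC1 fell by 0.79 and 0.67 on the log2 scale. COA1 had 44.9, 43.9 and 46.5 CPM in PM2.5 and 28.4, 23.4 and 28.4 CPM in Control and rose (log2 fold change 0.75 ± 0.11, adjusted p = 7.01e-05 by edgeR). For complex II 1 of 4 factors fell (2 without PM2.5 replicate 3 and 3 without Control replicate 3), SDHAF4, which helps SDHA join SDHB, at 3.13 ± 0.478 CPM in PM2.5 and 5.43 ± 0.625 CPM in Control. For complex III 3 of 6 fell, among them BCS1L, which inserts the Rieske protein, by 0.66, and UQCC1 and UQCC2 by 0.35 and 0.39, the last pair losing the call without PM2.5 replicate 2 (UQCC1, 0.0532) or without PM2.5 replicate 1, Control replicate 1 or Control replicate 2 (UQCC2, up to 0.0923). For complex IV 8 of 20 fell (5 without PM2.5 replicate 1) and none rose, led by TACO1, a translational activator of MT-CO1, at 19.8 ± 0.941 CPM in PM2.5 and 29.4 ± 2.27 CPM in Control (adjusted p = 0.00108 by edgeR). SURF1 and COA3, early assembly factors of complex IV, fell by 0.53 and 0.52. For complex V 1 of 3 fell, ATPAF2, by 0.55, and lost the call without PM2.5 replicate 1 (0.0548).

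**Figure D5:**
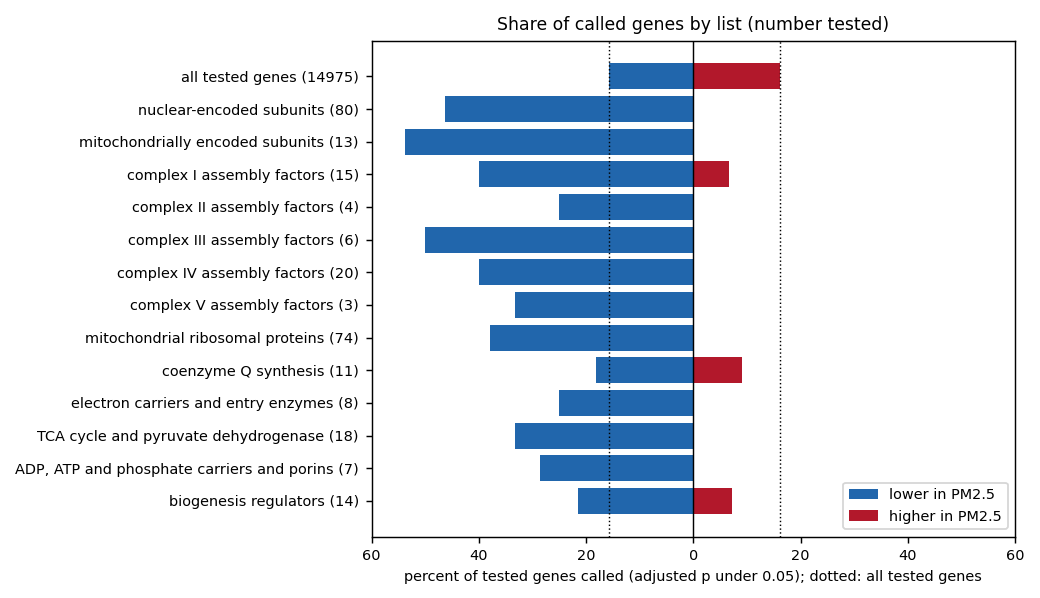
Percent of the tested genes of each list called lower (blue, to the left) and higher (red, to the right) in PM2.5, with the number tested in brackets and dotted lines at the 15.8% lower and 16.1% higher of all tested genes. The nuclear-encoded subunits stand at 46.25% lower and 0% higher, and the biogenesis regulators at 21.4% lower and 7.14% higher.

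Counts for other mitochondrial lists stand beside 15.8% of all tested genes lower and 16.1% higher. Of 74 tested mitochondrial ribosomal proteins 28 fell and none rose, at a median of -0.25, with MRPL57, MRPL58 and MRPL45 falling by 0.90, 0.68 and 0.58 on the log2 scale. Of the 28, 15 kept the call whichever single library was left out, a share not computed for all genes called lower. Lower were 17 without PM2.5 replicate 2, 18 without Control replicate 1 and 17 without Control replicate 2. In the TCA cycle and pyruvate dehydrogenase 6 of 18 genes fell and none rose, but with PM2.5 replicate 1 left out 0 were lower, with PM2.5 replicate 2 left out 1, and with Control replicate 1 or 2 left out 2. DLAT, MDH2 and IDH3G, with the smallest adjusted p-values, had log2 fold changes of -0.35, -0.36 and -0.34 and lost the call without PM2.5 replicate 1 (DLAT, 0.0624) or without any 1 of 4 libraries (MDH2 and IDH3G, up to 0.125). Citrate synthase, CS, averaged 166 ± 9.25 CPM in PM2.5 and 167 ± 16.7 CPM in Control (adjusted p = 0.957 by edgeR). Coenzyme Q synthesis had 2 lower and 1 higher of 11 genes, a share of lower genes near that of all genes. COQ9 and COQ5 fell by 0.61 each and COQ8A rose by 0.45. COQ5 lost the call without PM2.5 replicate 1, PM2.5 replicate 2 or Control replicate 3 (up to 0.091) and COQ8A without PM2.5 replicate 1, PM2.5 replicate 3 or Control replicate 2 (up to 0.113). Among 8 tested electron carriers and entry enzymes SQOR, which feeds electrons from sulphide into coenzyme Q, fell by 0.68 and NDUFAB1 by 0.34. Cytochrome c itself, CYCS, averaged 63.2 ± 9.70 CPM in PM2.5 and 53.3 ± 4.33 CPM in Control and was not called (adjusted p = 0.118 by edgeR). Of 7 ADP, ATP and phosphate carriers and porins SLC25A4 and SLC25A6 fell by 0.61 and 0.29, SLC25A6 keeping the call only without Control replicate 3 (adjusted p up to 0.234 otherwise).

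Of 14 tested regulators of respiratory gene expression 3 fell and 1 rose, at a median log2 fold change of 0.03. ESRRA, an orphan nuclear receptor that acts on respiratory genes, had 106, 97.3 and 106 CPM in PM2.5 and 141, 134 and 125 CPM in Control, without overlap (log2 fold change -0.37 ± 0.09, adjusted p = 0.00571 by edgeR). TWNK, the helicase of mitochondrial DNA, and POLRMT, its RNA polymerase, fell by 0.53 and 0.25, TWNK losing the call without PM2.5 replicate 1 (0.0577) and POLRMT without any library but Control replicate 3 (up to 0.238). GABPB1, the partner subunit of GABPA, averaged 17.5 ± 1.16 CPM in PM2.5 and 13.0 ± 1.63 CPM in Control and rose (adjusted p = 0.022 by edgeR, up to 0.105 without PM2.5 replicate 1, Control replicate 1 or Control replicate 3). The coactivators PPARGC1A and PPARGC1B were at low levels, 1.93 ± 0.283 and 2.63 ± 0.460 CPM in PM2.5 and 2.35 ± 0.391 and 3.97 ± 0.583 CPM in Control, and were not called (adjusted p = 0.437 and 0.0515 by edgeR). NRF1, GABPA and YY1, whose letters were searched in the promoters, had log2 fold changes of 0.18, 0.06 and 0.00 and were not called. TFAM, which packages and transcribes mitochondrial DNA, the coactivator PPRC1 and MYC had log2 fold changes of 0.26, -0.01 and 0.10 and were not called either.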

How the data were processed

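RNA of 6 libraries was sequenced after a NEBNext Ultra preparation, per the labels' protocols. Raw counts per gene were deposited by the authors with gene names, biotypes, lengths and coordinates, per the file headers. The build was GRCh38, per the submitters' processing notes, whereas the aligner, the counting tool and its strand option were not given in the sources used here. Coordinates and lengths match GENCODE 29. Genes were filtered with edgeR 4.0.16 (minimum count 10, minimum total 15), scaled by TMM and tested by its quasi-likelihood test on PM2.5 against Control, with Benjamini-Hochberg adjustment over 14975 genes in R 4.3.3. The script was tested on simulated data. CPM and CPM per kb were computed from the counts, and the SE is the log2 fold change over the root of F. DESeq2 1.42.0, limma 3.58.1 (voom), other scalings and filters, and fits without each library were alternatives. The members and lists were chosen with earlier results of these data known. Named by rule were up to 4 called members per complex and 3 called genes per list and direction with the smallest p, the highest member per length, complex II, CYC1, the paralog pairs, the mitochondrially encoded genes, CYCS and the main regulators. Other genes were chosen after their values were seen. Replicates of a group differed by more than counting noise. Floors for genes with 0 counts cover counting error only, whereas the SD and SE include the spread between libraries. Same-numbered replicates did not deviate together (correlations between -0.12 and 0.00). The values of 1 member are not reported here, though it stays in the counts and sums.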

Additional observations from a re-analysis of the deposited data

How the results depend on the processing

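The 37 genes called lower stayed below 0 in all 16 alternatives, and 9 of them kept the call in every one (NDUFA8, NDUFS5, NDUFB1, NDUFB2, COX6B1, ATP5PD, ATP5MF, ATP5MC1 and ATP5PF). The like shares were not computed for all genes called lower. Other library factors gave 34 members lower, DESeq2 36, limma-voom 35, no filter 38 and removed length and GC trends 42. Of all tested genes 21.3% were lower with these trends removed and 8.73% with no filter, against 15.8% in the main fit. With other library factors, DESeq2 or limma-voom, 13.6% to 15.9% of all tested genes were lower. Leaving out 1 library gave 18 to 55 members lower and 0 higher, with 1448 to 2680 genes lower over the whole table. The TPM scaling, chosen after seeing the data, gave 9 members lower and 2 higher (NDUFV2 and SDHA), 1013 genes lower in all, and medians of -0.11 for all members, -0.11 for complex I, -0.10 for complex II and -0.12 for complex V. The cause was not tested. With the replicate number as a block, 26 members and 12.2% of all genes were lower, though the samples share only a number.

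Signs turned for members near 0, none of them called. Under the TPM scaling log2 fold changes became 0.0316 for NDUFB9, 0.0632 for NDUFS4, 0.0836 for NDUFA12, 0.0797 for NDUFC1, 0.101 for NDUFA9, 0.0146 for SDHD, 0.0149 for UQCRFS1, 0.0524 for UQCRH, 0.0778 for COX6C, 0.0770 for COX5A, 0.0973 for COX8A, 0.0182 for ATP5MG, 0.0433 for ATP5PO, 0.117 for ATP5F1B and 0.145 for ATP5F1D. With length and GC trends removed they became -0.228 for NDUFA5, 0.0142 for ATP5F1B and 0.0026 for ATP5F1D. Leaving out 1 library gave -0.136 to 0.0270 for NDUFA9, -0.0497 to 0.186 for NDUFA11, -0.317 to 0.0215 for UQCRHL, -0.221 to 0.0334 for COX8A and -0.160 to 0.109 for ATP5F1D.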
